A study of Drosophila melanogaster with 9 samples.

Results

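The core proteins of the small nucleolar ribonucleoproteins (snoRNPs) are encoded by 8 of the 17471 genes in the count tables. There were 4 genes for the box C/D class (Fib, hoip, nop5 and Nop56) and 4 for the box H/ACA class (Nop60B, NHP2, CG4038 and CG7637). They were chosen by symbol and by membership of these cores. Their values were not a criterion, but earlier results of these data were known when they were chosen. All 8 were among the 9235 genes with enough counts to be tested. The reference annotation names CG4038 as Gar1 and CG7637 as Nop10, the other core proteins of the H/ACA class.

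RNA-seq was carried out on wing imaginal discs of Drosophila melanogaster, the larval epithelia from which the adult wing forms, to compare knockdown of Psi, an RNA-binding protein with KH domains, or of the growth regulator Myc with the control. Each group held 3 libraries, and each library came from 60 discs of larvae in the third instar, pooled from lots of 20. The labelled genotypes were tsGAL80;tubG4/+ for the control, tsGAL80;tubG4/Psi RNAi and tsGAL80;tubG4/Myc RNAi, so per the labels all groups, controls included, carried the tubulin-GAL4 driver with temperature-sensitive GAL80, a repressor of GAL4. The driver acts throughout the animal, 1 hairpin line was used for each target, and knockdown lasted 3 days. The control counts carry the name of a white-eyed stock, which leaves the control genotype in doubt.

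A snoRNP pairs a small nucleolar RNA, which finds its target by base pairing, with a fixed set of core proteins that carry out the modification. Box C/D particles methylate the ribose of ribosomal RNA and box H/ACA particles convert uridine to pseudouridine, and some members of each class act in cleavage of the ribosomal RNA precursor. Both classes work in the nucleolus, where ribosomes are made.

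The libraries held 26287040 to 34401160 gene counts, and the core genes had between 468 and 16726 counts each. Levels are in CPM (gene counts over the library total, scaled by TMM), with SD over 3 libraries, and changes as log2 fold changes from edgeR with their SE. Calls required an adjusted p below 0.01 (Benjamini-Hochberg over all genes tested). The target gene Psi read 335, 322 and 323 CPM in control discs and 74.7, 65.7 and 61.7 after Psi RNAi, a change of -2.28 ± 0.08 (edgeR adjusted p = 1.13e-06). Myc transcript stood at 149.5, 147 and 139 CPM in control discs, at 107, 118 and 108 after Psi RNAi and at 132, 109 and 103 after Myc RNAi. Both knockdowns thus lay below every control for Myc, and neither difference was called (-0.39 ± 0.09 and -0.34 ± 0.09, edgeR adjusted p = 0.0214 and 0.0146), although DESeq2 called both, as did edgeR without Myc RNAi replicate 1 (adjusted p = 0.00392 and 0.00083). All 7 wing disc markers were detected in every library and summed to between 2270 and 2533 CPM. The 5 fat body markers summed to 657 to 10686 CPM in control discs, 241 to 6464 after Psi RNAi and 786 to 2354 after Myc RNAi, and the 4 salivary gland and gut markers to 5.91 to 29.0 CPM, 14.1 to 1165 CPM and 1.75 to 335 CPM, with none of either list at 0 in any library. In every group the fat body sum fell from replicate 1 to replicate 3. The 3 haemocyte markers summed to 63.5 to 153 CPM in control discs, 31.3 to 53.6 after Psi RNAi and 30.1 to 88.0 after Myc RNAi, and were thus lower in every Psi RNAi library than in any control. The 2 tracheal markers summed to 117 to 127 CPM, 114.5 to 127.9 CPM and 110.0 to 115.3 CPM. They were lower in every Myc RNAi library than in any control. The 4 adult muscle progenitor markers summed to 117 to 137 CPM in control discs. They were at 122.5 to 128.5 CPM after Psi RNAi and 131.9 to 138.2 CPM after Myc RNAi. Each knockdown overlapped the control, and every Myc RNAi library was above every Psi RNAi library. No marker of these lists was at 0 in any library. The coefficient of variation of the core genes reached 4.84% in the control, 7.91% in Psi RNAi and 11.1% in Myc RNAi, and the part of other cell types in the results was not tested.

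Myc RNAi lowered all 8 core genes, to between 22.1% of the control level for hoip and 36.2% for CG7637. Across all genes tested 11.4% were called lower in Myc RNAi, and the median log2 fold change was -0.03, against -2.02 for the core genes. In Psi RNAi none of the 8 was called, against 4.07% of all genes tested, and their levels were 94.2% to 108% of the control. Because discs were measured in bulk, fewer cells of a type and less RNA per cell cannot be told apart.

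**Figure D1:**
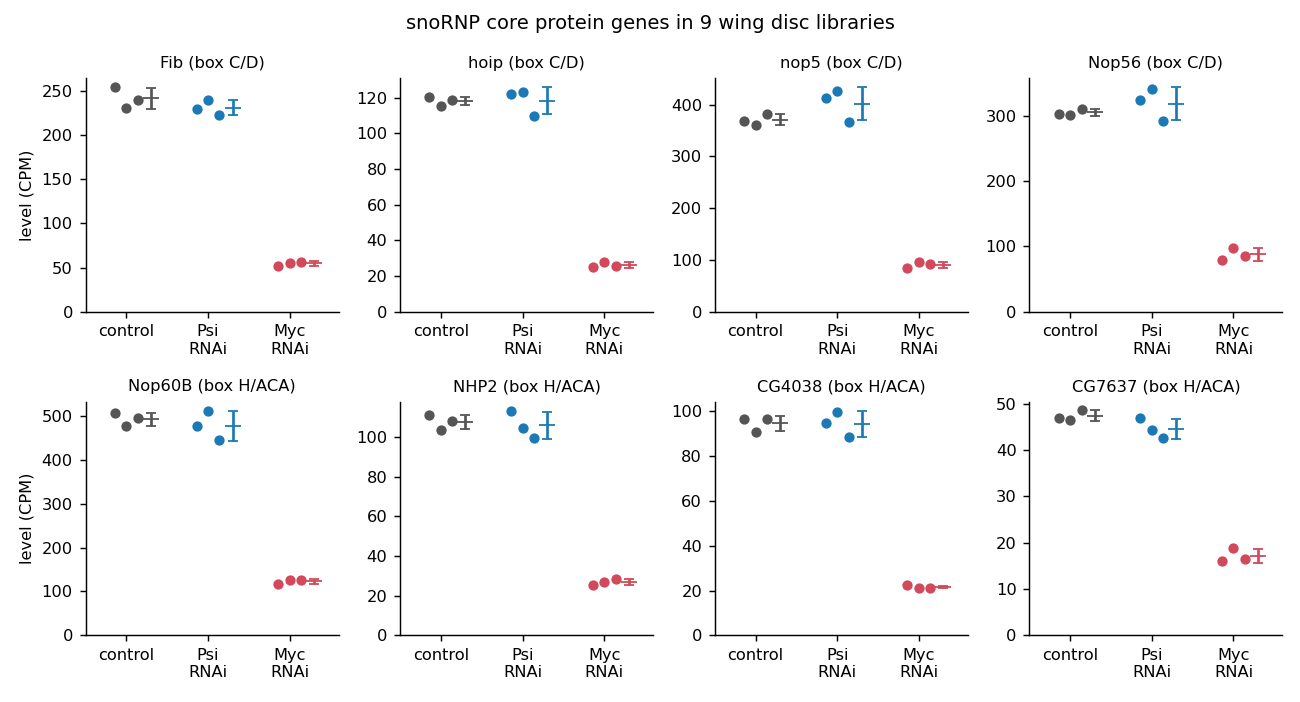
Levels of the 8 core genes in CPM (vertical axis, from 0) in the control, Psi RNAi and Myc RNAi libraries. Points are single libraries and the bars beside them give the mean ± SD of 3. In every panel the Myc RNAi points lie far below the others, for example 52.0 to 56.8 CPM against 231 to 254 CPM for Fib, while the control and Psi RNAi points overlap.

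Among the box C/D genes, Fib (2R, 23072909 to 23074725, minus strand, 3 exons, release 6 assembly) encodes fibrillarin, the methyltransferase of the particle. It stood at 254, 231 and 239.9 CPM in control discs, 229.7, 239.6 and 223 after Psi RNAi and 52.0, 55.3 and 56.8 after Myc RNAi. All 3 Myc RNAi libraries were low, with no overlap with the other groups, whereas control and Psi RNAi overlapped. The change in Myc RNAi was -2.14 ± 0.05, to 22.7% of the control (95% interval 20.8% to 24.6%, edgeR adjusted p = 4.96e-08), and its unadjusted p was the smallest of all genes tested.

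nop5 (2L, 6916753 to 6918743, minus strand, 2 exons) and Nop56 (3R, 22419095 to 22421068, minus strand, 3 exons) encode the paired scaffold proteins that hold fibrillarin at the guide RNA, as known from the yeast proteins Nop58 and Nop56. The level of nop5 was 369, 361 and 382 CPM in control discs, 412, 426 and 366 after Psi RNAi and 84.0, 95.3 and 91.3 after Myc RNAi. Nop56 was at 303, 301 and 311 CPM, then 324, 341 and 291 CPM, then 79.0, 98.2 and 85.7 CPM. For both genes the Myc RNAi libraries were low and separate. The Psi RNAi libraries lay within or above the control range for nop5 and on both sides of it for Nop56. In Myc RNAi the log2 fold change was -2.04 ± 0.07 for nop5 and -1.80 ± 0.08 for Nop56 (edgeR adjusted p = 6.78e-08 and 2.56e-07). Nop56 had the widest spread of the core genes in Myc RNAi, with a coefficient of variation of 11.1%.

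The box C/D gene hoip (2L, 9699791 to 9700459, plus strand, 2 exons) encodes a small protein of the L7Ae family, which binds the kink-turn that the C and D boxes form. Its human counterpart SNU13 is also a component of the U4 spliceosomal particle. It was at 120.2, 115.4 and 119 CPM in control discs, 122, 123 and 109.9 after Psi RNAi and 24.9, 27.9 and 25.6 after Myc RNAi. The control and Psi RNAi libraries were intermixed and the Myc RNAi libraries stood apart. With -2.18 ± 0.06 (edgeR adjusted p = 4.96e-08), hoip had the lowest log2 fold change of the 8, and it was 146th from the lowest among all genes tested.

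In the box H/ACA class, Nop60B (2R, 24174877 to 24186343, plus strand, 5 annotated transcripts of 6 to 13 exons) encodes the pseudouridine synthase, the counterpart of human dyskerin. It was the most abundant core transcript by counts, at 506, 476 and 495 CPM in control discs, 476, 511 and 444 after Psi RNAi and 117, 127 and 126 after Myc RNAi. The Myc RNAi libraries were all low, and the control and Psi RNAi ranges overlapped. Its log2 fold change in Myc RNAi was -1.996 ± 0.06 (edgeR adjusted p = 4.96e-08).

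NHP2 (3L, 14801328 to 14802168, minus strand, 2 exons), the L7Ae-family protein of this class, and CG4038 (2R, 21095958 to 21097305, minus strand, 3 exons), whose yeast counterpart Gar1 helps in turnover of the modified target, followed the same course. NHP2 was at 111, 104 and 108 CPM in control discs, 113, 105 and 99.6 after Psi RNAi and 25.3, 26.7 and 28.7 after Myc RNAi. CG4038 was at 96.6, 90.8 and 96.8 CPM, then 94.9, 99.9 and 88.4 CPM, then 22.3, 21.3 and 21.2 CPM. Only the Myc RNAi libraries of either gene were separate from the rest. In Myc RNAi NHP2 changed by -2.0 ± 0.06 and CG4038 by -2.13 ± 0.06 (edgeR adjusted p = 6.04e-08 and 4.96e-08).

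CG7637 (2R, 10810556 to 10810936, minus strand, 2 exons) encodes Nop10, a very small protein that contacts the synthase, and had the lowest level of the 8 in CPM. It was at 46.9, 46.5 and 48.7 CPM in control discs, 46.8, 44.3 and 42.6 after Psi RNAi and 16.1, 18.8 and 16.6 after Myc RNAi. As for the other members, the Myc RNAi libraries lay below all others and the control and Psi RNAi ranges overlapped. The change in Myc RNAi was -1.46 ± 0.07, to 36.2% of the control (95% interval 32.7% to 40.1%, edgeR adjusted p = 2.29e-07), the smallest fall of the 8.

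Ordered by their log2 fold change in Myc RNAi, the genes ran hoip, Fib, CG4038, nop5, NHP2, Nop60B, Nop56 and CG7637, which mixes the classes. The 95% intervals of every pair of neighbours in this order overlapped, while the interval of CG7637 (-1.61 to -1.32) lay clear of that of Nop60B (-2.13 to -1.86) and of those further down. The groups were separate, with every Myc RNAi library below every control, for 8 of 8 core genes and for 24.3% of all genes tested. Of the read pairs in the count tables, the share that mapped to more than one place was 9.52% to 11.5% in the control and Psi RNAi and 12.3% to 15.8% in Myc RNAi, and the TMM factors were 0.96 to 0.97 and 1.06 to 1.08. The part of these shares in the result was not tested.

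**Figure D2:**
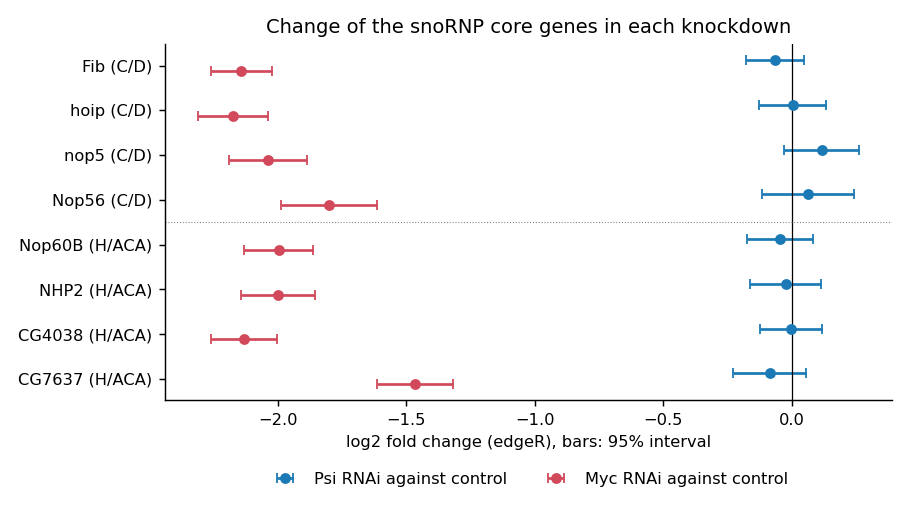
Log2 fold changes against the control (horizontal axis) for each core gene, with 95% intervals, in Psi RNAi and in Myc RNAi. The Myc RNAi values run from -2.18 (hoip) to -1.46 (CG7637) with both classes intermixed, and all Psi RNAi intervals cross 0.

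In Psi RNAi 0 of 8 core genes were called by edgeR, against 4.07% of all genes tested. For 8 genes, 0 calls lies near that share. There were 0 at an unadjusted p under 0.05, against 2538 of the 9235 genes tested. By DESeq2 0 were called, against 874 genes in all. The log2 fold changes ran from -0.09 ± 0.06 for CG7637 to 0.12 ± 0.06 for nop5, with edgeR adjusted p of 0.281 to 0.979. Taken gene by gene, the 95% intervals reached down to 85.2% of the control for CG7637 and up to 120.0% for nop5. They are not adjusted for the number of genes and so are no joint bound. No core gene had separate control and Psi RNAi libraries, against 32.8% of all genes tested.

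The direct contrast of the knockdowns asked whether the core genes differed between them, since both were set against the same controls. Myc RNAi was lower than Psi RNAi for 8 of 8 core genes, against 12.8% of all genes called lower, from -2.18 ± 0.06 for hoip to -1.38 ± 0.07 for CG7637 (edgeR adjusted p = 3.99e-08 to 2.81e-07). In this contrast the interval of CG7637 was also separate from that of its neighbour in the order, Nop56 at -1.86 ± 0.08. For Myc transcript itself the log2 difference between the knockdowns was 0.05 ± 0.09 (edgeR adjusted p = 0.713), and their libraries overlapped.

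The classes were then compared. The median log2 fold change in Myc RNAi was -2.09 for the box C/D genes (-2.18 to -1.80) and -1.998 for the box H/ACA genes (-2.13 to -1.46), and in Psi RNAi it was 0.03 and -0.03, with a sign that turned for each class when 1 library was left out. The range within each class was thus wider than the distance between the class medians. Summed over the class, box C/D transcripts were at 1035 ± 23.6 CPM in control discs (SD, n = 3), 1069 ± 71.4 after Psi RNAi and 259 ± 18.4 after Myc RNAi. Box H/ACA transcripts were at 742 ± 22.5, 722 ± 43.3 and 189 ± 7.05 CPM in the same order. All 8 genes together made up 0.171% of the gene counts in the control, 0.173% in Psi RNAi and 0.0480% in Myc RNAi.

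A difference between classes within a library does not depend on the scaling of that library. The mean log2 CPM of the box C/D genes exceeded that of the box H/ACA genes by 0.936, 0.949 and 0.936 in the control, by 0.992, 1.04 and 0.993 in Psi RNAi and by 0.753, 0.853 and 0.792 in Myc RNAi. The 3 groups did not overlap, with Psi RNAi highest and Myc RNAi lowest, although the mean shifts from the control were only 0.07 and -0.14 on the log2 scale. For comparison, 32.8% of single genes tested separated Psi RNAi from the control, and 24.3% were lower in every Myc RNAi library. In Psi RNAi the box C/D genes did not move together: nop5 was at 0.12 and Nop56 at 0.06, but hoip at 0.003 and Fib at -0.07. With CG7637 left out of the box H/ACA mean, a choice made after its values were seen, the difference was 0.460 to 0.493 in the control, 0.521 to 0.549 in Psi RNAi and 0.421 to 0.566 in Myc RNAi. The Myc RNAi libraries then overlapped the control (shift of 0.0023), and the Psi RNAi libraries stayed above it (0.05). So this mean did not show the lower class difference in Myc RNAi, though Nop56, with the smallest box C/D fall, was kept. The ratios computed across the classes without CG7637 were still lower in every Myc RNAi library than in any control. Fib to Nop60B was 0.436 to 0.450 against 0.484 to 0.502, and hoip to NHP2 was 0.895 to 1.04 against 1.08 to 1.11. No test was made of the class difference over the members.

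Ratios between core genes, which were not planned in advance, showed which pairs kept their proportions. Nop60B to NHP2 was 4.58 ± 0.01 (SD, n = 3) in control discs, 4.52 ± 0.34 after Psi RNAi and 4.59 ± 0.17 after Myc RNAi, with overlapping groups. CG7637 to Nop60B was 0.0928, 0.0977 and 0.0983 in the control, 0.0985, 0.0867 and 0.0958 in Psi RNAi and 0.138, 0.148 and 0.131 in Myc RNAi. The Myc RNAi ratios were all above the rest, by 1.44-fold on average over the control. In the box C/D class Fib to Nop56 was 0.838, 0.766 and 0.771 in the control, 0.710, 0.703 and 0.765 in Psi RNAi and 0.658, 0.563 and 0.663 in Myc RNAi. That ratio was lowest in Myc RNAi with no overlap, and its control and Psi RNAi values were separate by a margin of 0.766 against 0.765. Fib to nop5 was also higher in every control (0.628 to 0.689) than in Psi RNAi (0.557 to 0.608) or Myc RNAi (0.580 to 0.622). For nop5 to Nop56 the 3 groups were separate, at 1.20 to 1.23 in control discs, 1.25 to 1.27 after Psi RNAi and 0.970 to 1.07 after Myc RNAi. So 3 of the 11 ratios computed separated Psi RNAi from the control, all of them between Fib, nop5 and Nop56. Of all single genes tested 32.8% separated these groups, and the 3 ratios share the same 3 genes, so they are not independent. Nop60B to CG4038 was 5.11 to 5.24 in the control and 5.25 to 5.96 in Myc RNAi, separate by 5.24 against 5.25. Fib to hoip overlapped in all groups, at 2.04 ± 0.06, 1.95 ± 0.07 and 2.096 ± 0.12. Of the ratios computed, only this one and Nop60B to NHP2 overlapped between the control and Myc RNAi. Among single genes tested, 24.3% were lower in every Myc RNAi library than in any control. An exact permutation test of 3 against 3 libraries cannot go below p = 0.1, so the ratios are given without one.

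**Figure D3:**
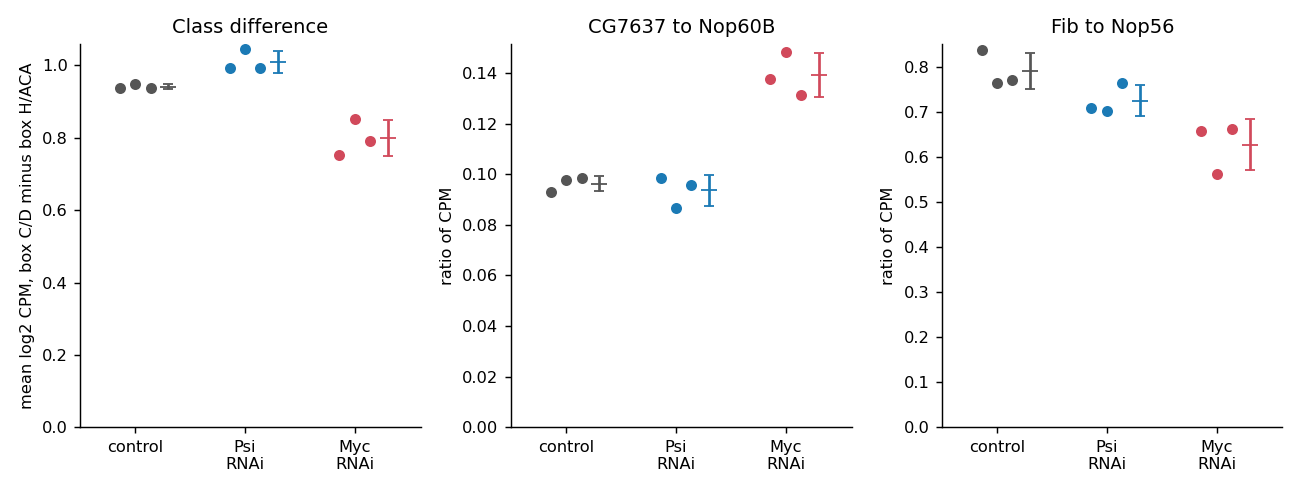
Left, mean log2 CPM of the box C/D genes minus that of the box H/ACA genes; middle, ratio of CG7637 to Nop60B; right, ratio of Fib to Nop56, with axes from 0. Points are libraries and bars the mean ± SD of 3. The class difference is lowest in Myc RNAi (0.753 to 0.853), where without CG7637 it overlaps the control, the CG7637 ratio is highest there (0.131 to 0.148) and the Fib ratio is lowest there (0.563 to 0.663).

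Levels of different genes were compared as CPM per kb of coding sequence. In the control Nop60B was highest, at 323 ± 10 CPM per kb, followed by hoip at 310.0 ± 6.36, and their libraries overlapped. CG7637 (247 ± 6.1), nop5 (242 ± 7.03), Fib (234 ± 11.3) and NHP2 (224 ± 7.46) came next, each overlapping the next. Nop56 at 205 ± 3.504 and CG4038 at 133 ± 4.80 lay below, each separate from the gene above it. The highest level was 2.42 times the lowest, against 10.4 times for CPM without the length. In Psi RNAi Nop60B and hoip again led and CG4038 was again last. In Myc RNAi CG7637 was first at 89.3 ± 7.48 CPM per kb, just clear of Nop60B at 80.9 ± 3.54, and CG4038 was last at 30.4 ± 0.87. The order depends on the length used: per kb of all annotated exons, nop5 led in the control at 204 and Nop60B, whose annotated exons cover 3412 bases against 1524 coding bases, stood at 144.

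**Figure D4:**
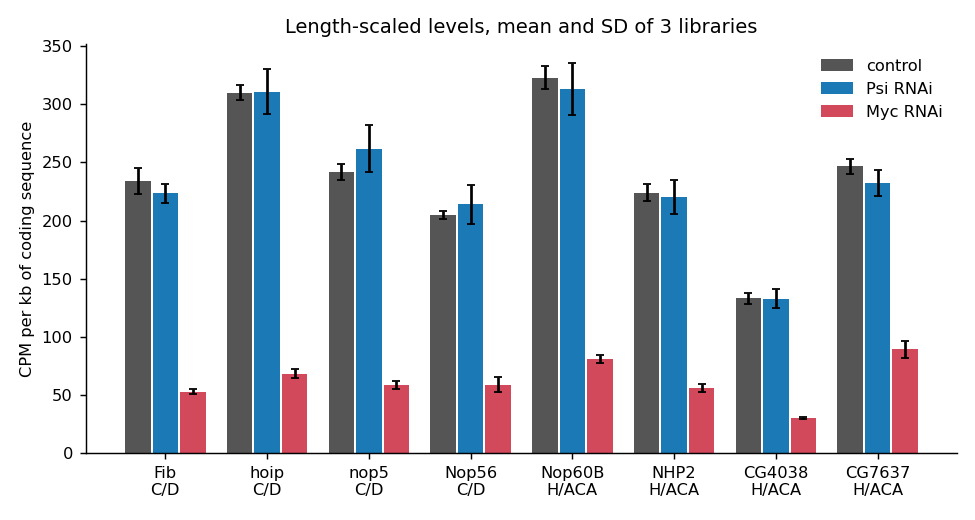
CPM per kb of coding sequence (vertical axis, from 0) for each core gene, as mean and SD of 3 libraries per group. Nop60B (323) and hoip (310.0) lead in the control and CG7637 (89.3) leads in Myc RNAi, and CG4038 is lowest in every group.

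The core genes also differ in what surrounds them. nop5 lies within the span of x16, a splicing factor gene on the same strand, with no shared exon bases. x16 stood at 189.7, 196 and 197 CPM in the control and 178, 192 and 170.0 CPM in Myc RNAi, a change of -0.11 ± 0.06 that was not called (edgeR adjusted p = 0.163). So the nested gene fell about as far as the other core genes while the gene around it had a lower 95% bound of -0.23 on the log2 scale. CG4038 lies within CG34396 on the opposite strand, which had at most 0.36 CPM in any library. CG7637 shares 100 exon bases with CG12935 on the opposite strand, which was at 12.03, 12.6 and 12.9 CPM in the control and 9.38, 10.5 and 12.2 CPM in Myc RNAi and was not called (-0.23 ± 0.11, edgeR adjusted p = 0.142). The counts were made by strand. Apart from snoRNA genes within Nop60B, given below, no member shared exon bases with a gene on its own strand.

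Many snoRNAs of animals are cut out of introns of host genes, and 3 core genes hold annotated snoRNA genes on their own strand: Nop60B has 7, Fib has 1 and nop5 has 1. Among tested genes that encode proteins, 0.928% hold such a gene (80 of 8617). In Fib the snoRNA gene snoRNA:229 (2R, 23073829 to 23073968) is intronic, and it had 25, 46 and 37 counts in the control, 26, 18 and 22 in Psi RNAi and 12, 3 and 3 in Myc RNAi. In nop5 the intronic snoRNA:nop5-x16-a had 10, 10 and 14 counts in the control, 21, 10 and 25 in Psi RNAi and 13, 4 and 4 in Myc RNAi. In Nop60B snoRNA:Psi18S-1820, named as a guide of pseudouridylation, is intronic in all 5 transcripts and had 7, 11 and 12 counts in the control, 6, 5 and 7 in Psi RNAi and 4, 3 and 4 in Myc RNAi. Control and Myc RNAi counts did not overlap for the snoRNA genes in Fib and for this one, and overlapped for the one in nop5. The other 6 in Nop60B are exonic in 1 transcript and had 0 counts in all 9 libraries. Read pairs that overlap exons of more than 1 gene may be set aside as ambiguous, so these 0 counts do not show absence. Libraries were selected for poly(A), so these few counts are no measure of mature snoRNA, and they were not tested.

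In the splicing tables, which cover Psi RNAi and control, 3 events were listed for the core genes, all of them skipped exons of Nop60B. No header says which of the groups is listed first, so no direction is given. Whether any of the 3 changed was not examined. A listing is not a call of a change: 6493 skipped-exon events are listed in all.

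Genes that act with the core proteins or resemble them were examined as lists. Of 8 tested snoRNP assembly and maturation genes, 4 were called lower and 0 higher in Myc RNAi, against 11.4% of all genes called lower, with a list median of -0.36 against -0.03 for all genes tested. Nopp140, a nucleolar chaperone that binds both classes of snoRNP, was at 366, 351 and 377 CPM in the control and at 127, 138 and 124 CPM in Myc RNAi, with no overlap, a change of -1.49 ± 0.06 (edgeR adjusted p = 1.21e-07). pont and rept, the paired ATPases of the R2TP assembly complex, changed by -0.54 ± 0.05 and -0.47 ± 0.05, and Nufip, an assembly factor for box C/D particles in human cells, by -0.79 ± 0.11 (edgeR adjusted p = 3.44e-05, 5.86e-05 and 0.000653). The other 4 ran from -0.25 to 0.05 and were not called. A further listed gene, Tgs1, had 0 counts in every library.

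Psi RNAi had 1 call in this list, and it was the only call in that contrast among the 20 tested genes of the 5 lists, a share near the 4.07% of all genes tested. Pih1D1, the adaptor of the R2TP complex, was at 162, 151 and 161 CPM in control discs, 104, 110.2 and 104 after Psi RNAi and 156, 142 and 144 after Myc RNAi. The Psi RNAi libraries were low and separate, and those of the control and Myc RNAi overlapped. The change was -0.57 ± 0.05 in Psi RNAi (edgeR adjusted p = 0.000203), and the knockdowns differed from each other by 0.47 ± 0.05 with Myc RNAi higher (edgeR adjusted p = 7.85e-05).

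U3-55K, a protein specific to the U3 box C/D particle that acts in precursor cleavage, was at 42.0, 40.5 and 41.9 CPM in control discs, 37.3, 38.9 and 41.3 after Psi RNAi and 14.1, 13.7 and 14.6 after Myc RNAi. It was thus low in all Myc RNAi libraries, with -1.55 ± 0.05 (edgeR adjusted p = 7.50e-08), and was not called in Psi RNAi. The spliceosomal U4/U6.U5 particle shares the L7Ae-family protein of hoip and a relative of nop5 and Nop56, Prp31. None of its 4 tested genes was called by edgeR against the control in Myc RNAi (-0.13 to 0.17) or in Psi RNAi (0.01 to 0.21). In each, 2 had an unadjusted p under 0.05. Of all 9235 genes tested, 1754 were called in Myc RNAi and 376 in Psi RNAi, and 3832 and 2538 had an unadjusted p under 0.05. With 4 genes, these counts do not set the particle apart from all genes. Prp31 was called in Myc RNAi under library totals alone, and Prp3 in Psi RNAi by DESeq2 and without Myc RNAi replicate 2.

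Pseudouridine synthases that act without a guide RNA were compared with Nop60B. Of 4 tested (RluA-1 had too few counts), 3 were called lower in Myc RNAi, against 11.4% of all genes, and 0 in Psi RNAi, against 4.07% called in either direction. They were CG4159 (Pus1) at -1.14 ± 0.07, CG6745 (Pus7) at -0.96 ± 0.08 and CG3709 (Pus10) at -0.70 ± 0.09 (edgeR adjusted p = 1.23e-06, 1.20e-05 and 0.000267), while RluA-2 at -0.16 ± 0.06 was not called. The 3 ribosomal proteins of the L7Ae family, relatives of hoip and NHP2, were also called lower in Myc RNAi, RpL7A at -0.99 ± 0.03, RpL30 at -1.0 ± 0.04 and RpS12 at -0.96 ± 0.06 (edgeR adjusted p = 6.04e-08, 2.29e-07 and 1.49e-06), and 0 of 3 in Psi RNAi, against the same 11.4% and 4.07%. The 95% intervals of these synthases and ribosomal proteins all lay above those of hoip, NHP2 and Nop60B, so their falls were smaller.

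**Figure D5:**
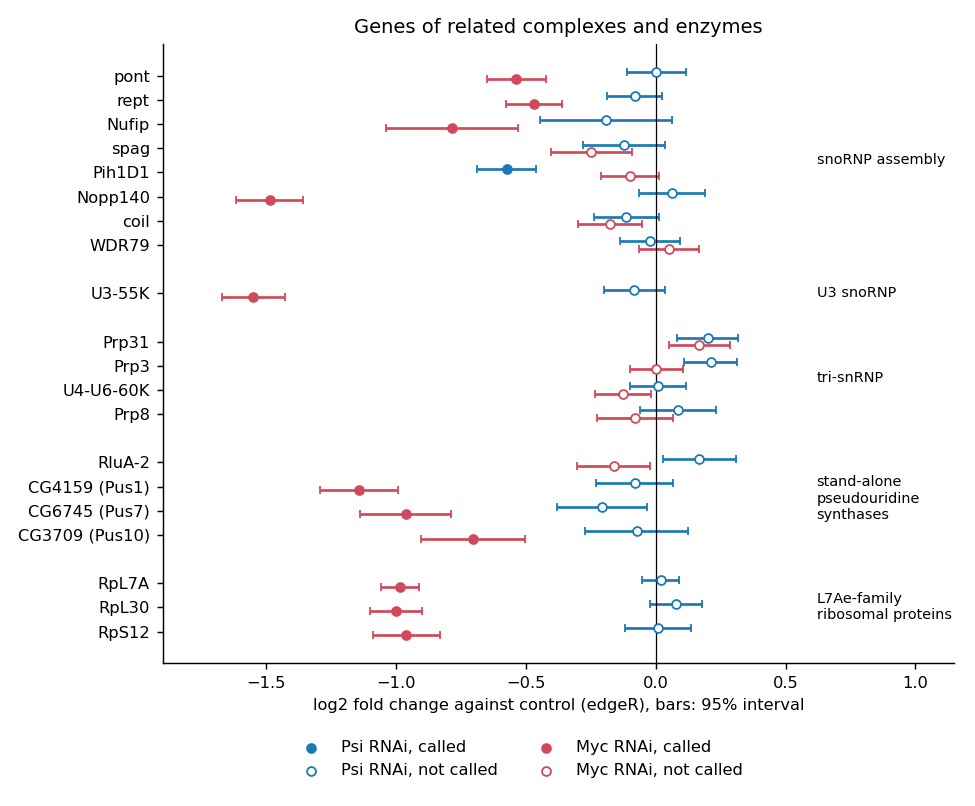
Log2 fold changes against the control (horizontal axis) with 95% intervals for the tested genes of 5 lists, filled where called. In Myc RNAi the filled points run from U3-55K at -1.55 to rept at -0.47, the 4 genes of the U4/U6.U5 particle are open, and the filled point of Psi RNAi is Pih1D1 at -0.57.

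Across the 9 libraries each core gene tracked the mean profile of the 8, with Pearson's r from 0.9965 for CG7637 to 0.9999 for hoip. Of the 6507 genes with a mean of at least 10 CPM, the 5 most like that profile were RpL8 (r = 0.9996), RpS2 (0.9995), RpL13 (0.9993), Nacalpha (0.9993) and Ahcy13 (0.9991). The correlation is blind to the size of the change: RpL8 differed by -1.26 in Myc RNAi, RpS2 by -1.08, RpL13 by -1.29, Nacalpha by -1.05 and Ahcy13 by -0.79, against -2.02 for the median core gene. The 9 points share 3 groups and fall into a low and a high cluster, so r mostly records that split, and no p is given.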

How the data were processed

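The authors deposited counts of read pairs per gene, 1 library per table, made from stranded poly(A) libraries with TopHat2 2.1.1 and HTSeq 0.6.1 against FlyBase genome release 6.10 (submitters' processing notes and the study's methods). Their tables of fold changes and p-values, made with DESeq2 1.12.0, served only to link symbols to identifiers, and the rMATS splicing tables only to see which genes had listed events, with 48 columns of per-library values not used. The 5 summary lines of each count table were left out. Pairs aligned to more than one place stand outside the counts.

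Counts were fitted over all 9 libraries with edgeR 4.0.16 in R 4.3.3 (TMM scaling, filterByExpr, robust quasi-likelihood F test, no covariate), with p-values adjusted by Benjamini-Hochberg over 9235 genes, after a test on simulated data. Intervals are at 95%. The common biological coefficient of variation was 23.0%. Whether the pools of a group derive from different crosses is not given in the sources used here, so the p-values rest on pool-to-pool spread that may be partly technical. No libraries of a group agreed within sampling noise (lowest chi-square per degree of freedom 18.1). Deviations from the group means correlated between control and Myc RNAi libraries of the same number (r = 0.309, 0.232 and 0.442). These were taken as paired from the data alone. Control and Psi RNAi libraries (0.304, 0.0901 and 0.212) were not taken as paired, although these r were positive too. Nor were Myc RNAi and Psi RNAi libraries (-0.0496, -0.210 and 0.0345). The main fit has no term for pairing.

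Members and lists were chosen with earlier results of these data known. The text names the 8 core genes, called genes of each list, the targeted genes and the 5 genes most like the core profile, and x16, CG34396 and CG12935 were added for their position. From the lists 7 entries were left out because no source used here names their role, which goes beyond the planned rule, and 2 were not matched. Positions, lengths and snoRNA genes are from the Ensembl annotation of the release 6 assembly. A planned search of promoters for motifs was not run and no sequence is shown.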

Additional observations from a re-analysis of the deposited data

How the results depend on the processing

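The counts of core genes called (0 in Psi RNAi, 8 in Myc RNAi and 8 between the knockdowns) were the same in all 16 other fits, and each called core gene kept its direction. With the replicate block, 0 and 8 core genes were called against the control, and 1 list gene in Psi RNAi and 11 in Myc RNAi, as without it. The block lost no call of a named gene and made the fall of Myc in Myc RNAi a call (-0.34). Over all genes, calls in Psi RNAi were 376, with 874 by DESeq2 and 150 to 350 when a replicate was left out, and in Myc RNAi 1754, with 2732 under library totals alone. The list genes called in Psi RNAi were 1, but 2 by DESeq2, and 1 to 2 when a replicate was left out (2 without Myc RNAi replicate 2), the second gene being Prp3. The fall of Myc was also called by DESeq2 in both knockdowns (-0.38 and -0.32), in Psi RNAi with only both groups fitted (-0.38) and, without Myc RNAi replicate 1, in both (-0.39 and -0.45). Library totals alone, without TMM, moved the median of all genes by 0.15 in Myc RNAi, and the class medians became -1.94 (box C/D) and -1.84 (box H/ACA) against the control and -1.96 and -1.81 against Psi RNAi. They cut the fall of Myc in Myc RNAi from -0.34 to -0.18 (edgeR adjusted p = 0.115), made 1 gene of the U4/U6.U5 particle, Prp31, a call there, and turned Pih1D1 and x16 in Myc RNAi, neither of them called, to 0.0542 and 0.0429. The cause of these changes was not tested.

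The other values that changed sign lay near 0 and were not called. In Psi RNAi hoip was -0.000975 with upper-quartile scaling and -0.00201 with no filter, and CG4038 was 0.00423 by DESeq2, 0.00385 with RLE size factors and 0.00343 with only both groups fitted. With a replicate left out the ranges in Psi RNAi were -0.0266 to 0.0534 (hoip), -0.0981 to 0.00339 (Nop60B), -0.0742 to 0.0172 (NHP2) and -0.0479 to 0.0400 (CG4038). The class medians in Psi RNAi ranged from -0.0080 (without Psi RNAi replicate 2) to 0.0881 for box C/D and from -0.0657 to 0.0103 (without Psi RNAi replicate 3) for box H/ACA. The shift of the class difference in Myc RNAi was 0.0023 without CG7637, an alternative chosen after seeing the data. For Myc between the knockdowns the range was -0.0642 to 0.120. The core genes had at least 468 counts in each library.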
